A study of Homo sapiens with 8 samples.

Results

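NF-kappaB target and feedback genes are described here, chosen by name: the inhibitors NFKBIA and TNFAIP3, the chemokines CXCL8 and CXCL1, the survival genes IER3 and BIRC3, the Rel family subunits RELB, NFKB1 and NFKB2, and the adhesion receptor ICAM1. Of these 10 genes, 9 had a row among the 23193 genes of each count table, and all 9 passed the filter on low counts in both tables. IER3 was not analysed here. Precision run-on sequencing (PRO-seq), which maps transcriptionally engaged RNA polymerases by labelling nascent RNA, was performed in HCT116 colorectal carcinoma cells, either wild-type (WT) or carrying a homozygous HIF1A disruption (HIF1A-/-). Each genotype was kept in normoxia or exposed to 1% O2 for 90 min, giving 4 groups of 2 libraries, and every culture received DMSO as vehicle. The HIF1A-/- cells were made by virus-mediated homologous recombination at the coding exons, and the labels name 1 such line, so the genotype and the history of that line cannot be told apart. The methods describe the replicates of a group as independent.

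NF-kappaB is a family of dimeric transcription factors held inactive in the cytoplasm by IkappaB proteins. Receptor signals activate IkappaB kinases, the inhibitor is degraded or a precursor subunit is processed, and the freed dimer binds kappaB sites. Its targets include its own inhibitors, which close a negative feedback loop, along with subunits of the factor, inhibitors of apoptosis, chemokines and adhesion receptors, and oxygen-sensing hydroxylases are known to touch the pathway. In epithelial cells of the colon these genes are known for their part in the response to inflammatory cytokines and microbial products.

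The libraries held 18125234 to 23622392 reads in gene bodies and 2783581 to 5966348 reads in the windows around transcription start sites (TSS regions). Of 8 established hypoxia targets, 7 rose in WT gene bodies and 0 of 8 in HIF1A-/- gene bodies (edgeR quasi-likelihood test at a false discovery rate of 10%, the rule for every call unless another is named), with 0 at an unadjusted p under 0.05 and 0 by DESeq2 in the latter. All 7 epithelial markers passed the filter, VIL1 with only 0 to 15 reads, whereas 0 of 5 leukocyte markers passed and none had more than 10 reads. The epithelial markers summed to between 855 and 1223 CPM per library. Marker sums are scaled to the library total only, and the other CPM given are TMM-scaled read counts, relative to library size. Of the fibroblast and endothelial markers, 2 of 4 and 2 of 3 passed, with sums of 20.6 to 56.1 and 8.14 to 28 CPM, and their part in the results was not tested. Each comparison was also fitted with the replicate number as a block, which compares libraries within a number and is given where it changes a call. Libraries of the same number varied together, and the fits without the block leave this out. The HIF1A gene body itself kept 2977 to 3500 reads in HIF1A-/- libraries against 2451 to 3882 in WT libraries, and since the disruption covers little of the gene these counts do not check the genotype.

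To show what sequence the start sites carry, promoters of 8 of the 10 genes were taken from RefSeq (GRCh38.p14), each spanning 250 bases before to 50 after the annotated start, and RELB and IER3 were not among them. The degenerate decameric kappaB consensus was found on either strand in 5 of these 8 promoters, against 5.72% of the 27305 promoters of the same length. The genes were chosen as NF-kappaB targets, so a high share may follow from that choice and is no test of it. The HIF core (ACGTG or GCGTG) was found in 4 of 8, against 48.4% of all promoters, and an AP-1 motif (TGANTCA) in 1 of 8, against 7.76%, which was CXCL8. Matches were counted on both strands, so that a palindromic site counts on each. The 5 promoters with a kappaB match and that of ICAM1, the gene that differed most between the genotypes, are printed for the 250 bases before the start, 5′ to 3′ along the gene, with kappaB matches in capitals.
NFKBIA: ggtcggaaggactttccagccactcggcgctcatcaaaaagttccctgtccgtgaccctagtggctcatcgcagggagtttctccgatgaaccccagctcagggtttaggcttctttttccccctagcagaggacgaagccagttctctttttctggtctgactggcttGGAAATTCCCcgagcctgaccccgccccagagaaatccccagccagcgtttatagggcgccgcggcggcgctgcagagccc
TNFAIP3: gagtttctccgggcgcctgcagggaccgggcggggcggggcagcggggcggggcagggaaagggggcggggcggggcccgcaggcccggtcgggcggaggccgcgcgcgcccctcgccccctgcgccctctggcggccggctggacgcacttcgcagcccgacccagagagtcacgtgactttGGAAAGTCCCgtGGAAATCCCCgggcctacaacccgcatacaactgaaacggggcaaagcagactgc
CXCL1: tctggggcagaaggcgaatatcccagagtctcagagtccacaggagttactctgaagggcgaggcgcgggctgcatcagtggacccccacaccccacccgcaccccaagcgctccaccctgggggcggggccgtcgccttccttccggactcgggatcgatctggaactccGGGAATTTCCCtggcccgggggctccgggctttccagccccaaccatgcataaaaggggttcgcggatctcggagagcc
NFKB1: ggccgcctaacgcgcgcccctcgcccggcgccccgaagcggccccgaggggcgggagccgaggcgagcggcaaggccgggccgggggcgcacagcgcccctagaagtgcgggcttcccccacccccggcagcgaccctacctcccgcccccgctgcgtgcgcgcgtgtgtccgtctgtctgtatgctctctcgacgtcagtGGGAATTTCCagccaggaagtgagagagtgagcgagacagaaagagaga
BIRC3: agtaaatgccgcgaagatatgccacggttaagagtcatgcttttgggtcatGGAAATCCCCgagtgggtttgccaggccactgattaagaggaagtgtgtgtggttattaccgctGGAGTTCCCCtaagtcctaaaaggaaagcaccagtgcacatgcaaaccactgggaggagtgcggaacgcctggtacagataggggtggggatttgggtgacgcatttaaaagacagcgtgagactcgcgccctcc
ICAM1: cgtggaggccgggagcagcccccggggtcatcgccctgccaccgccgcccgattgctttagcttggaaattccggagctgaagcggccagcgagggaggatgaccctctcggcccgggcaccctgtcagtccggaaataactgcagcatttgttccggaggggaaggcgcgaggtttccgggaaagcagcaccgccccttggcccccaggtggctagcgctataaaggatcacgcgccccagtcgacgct
These stretches lie, in GRCh38.p14, at chr14:35404750-35404999 on the minus strand for NFKBIA, and on the plus strand at chr6:137867009-137867258 for TNFAIP3, chr4:73869143-73869392 for CXCL1, chr4:102501109-102501358 for NFKB1, chr11:102317234-102317483 for BIRC3 and chr19:10270870-10271119 for ICAM1. The NFKBIA match starts 81 bases before the start and that of NFKB1 49 bases before it, while TNFAIP3 carries matches at 67 and 55 bases before the start, close to a palindromic HIF core. The CXCL1 matches lie on opposite strands and overlap, starting 79 and 78 bases before the start, and BIRC3 holds matches 199 and 135 bases before the start. ICAM1 showed no match to the consensus and 1 HIF core, which says only that these letters are not in that window. Its printed stretch holds tggaaattcc, 1 base off the consensus. The CXCL8 promoter, which is not printed, holds tggaatttcc, also 1 base off. Near matches were not counted for any gene. The start sites of the deposited tables, chosen by the submitters as the most active, lay within 72 bases of the RefSeq start for NFKBIA, TNFAIP3, CXCL8, CXCL1 and BIRC3, 280 bases upstream of it for ICAM1, and 538 and 1485 bases downstream for NFKB1 and NFKB2. The TSS windows of NFKB1 and NFKB2 therefore do not cover the printed or annotated RefSeq start.

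Levels were first compared between the genes in WT cells kept in normoxia. Per kilobase of gene body, and as the mean of WT normoxia (SD, n = 2), NFKB2 was the highest at 8.70 ± 0.41 CPM per kb, followed by NFKBIA at 6.09 ± 0.28. CXCL1 (1.11 ± 0.12), NFKB1 (0.845 ± 0.0055) and RELB (0.693 ± 0.016) formed a middle range, separated from one another by more than their SDs. Below them, TNFAIP3 (0.438 ± 0.021), ICAM1 (0.413 ± 0.081) and BIRC3 (0.337 ± 0.14) did not differ from one another beyond the spread between libraries, and CXCL8 was the lowest at 0.131 ± 0.027, or 5 and 6 reads.

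ICAM1 encodes an adhesion receptor that binds leukocyte integrins, and was the member that differed most between the genotypes. Its gene body (GRCh37 chr19:10382517-10397291, plus strand, 22.4% exonic) held 5.25 and 6.96 CPM in normoxia then 6.87 and 6.39 in hypoxia in WT cells, and 0.909 and 1.47 then 1.6 and 1.5 in HIF1A-/- cells. Every WT library stood above every HIF1A-/- library, and in such bulk libraries fewer cells with signal and less signal per cell cannot be told apart. Signal was 5.09-fold lower in HIF1A-/- cells in normoxia (log2 fold change -2.35, SE 0.34, adjusted p = 0.0215, edgeR) and 4.26-fold lower in hypoxia (-2.09, SE 0.34, adjusted p = 0.0219). Around the start site the read counts were 52 and 58 in normoxia then 70 and 68 in hypoxia in WT cells, and 3 and 7 then 3 and 4 in HIF1A-/- cells. As scaled CPM this was 9.33-fold lower in normoxia (-3.22, SE 0.47, adjusted p = 0.00855) and 13.3-fold lower in hypoxia (-3.74, SE 0.50, adjusted p = 0.00352). The TSS calls held under every alternative run. Those of the gene body were lost in normoxia without WT replicate 2 (adjusted p = 0.202) or HIF1A-/- replicate 1 (0.116), and in hypoxia without any 1 of the 4 hypoxia libraries (0.101 to 0.156).

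No response of ICAM1 to hypoxia was called. The log2 fold change of its gene body was 0.12 in WT cells (95% interval -0.60 to 0.84) and 0.38 in HIF1A-/- cells (-0.44 to 1.19), with adjusted p = 0.941 and 1. Antisense genes (LIMASI in GENCODE, over both windows, and ICAM4-AS1 over the gene body) overlap it, and it is not stated whether reads were counted by strand, although the libraries were strand-specific. The genes within 100 kb, named after their values were seen, gave 2 calls among 10 tested gene bodies in normoxia, in opposite directions. Of all gene bodies 1.78% were called there. ICAM4, a red cell adhesion molecule that begins downstream on the same strand, had in normoxia 21 and 22 WT reads and 2 in each HIF1A-/- library (-3.50, adjusted p = 0.0324). Its TSS window begins 301 bases and its gene body 1352 bases after the end of the ICAM1 gene body. Whether ICAM4 reads came from transcription running on from ICAM1 was not tested. ICAM5, the next gene, was higher in HIF1A-/- cells (971 and 877 reads against 1637 and 1615, 0.66, adjusted p = 0.0446). In hypoxia 0 of the 10 were called by edgeR (4.26% of all genes), with 3 at an unadjusted p under 0.05 (15.7%). DESeq2 called 0, and 5 were called with the replicate number as a block (28.2% of all genes). Whether these neighbours have a part in the ICAM1 difference was not tested.

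**Figure D1:**
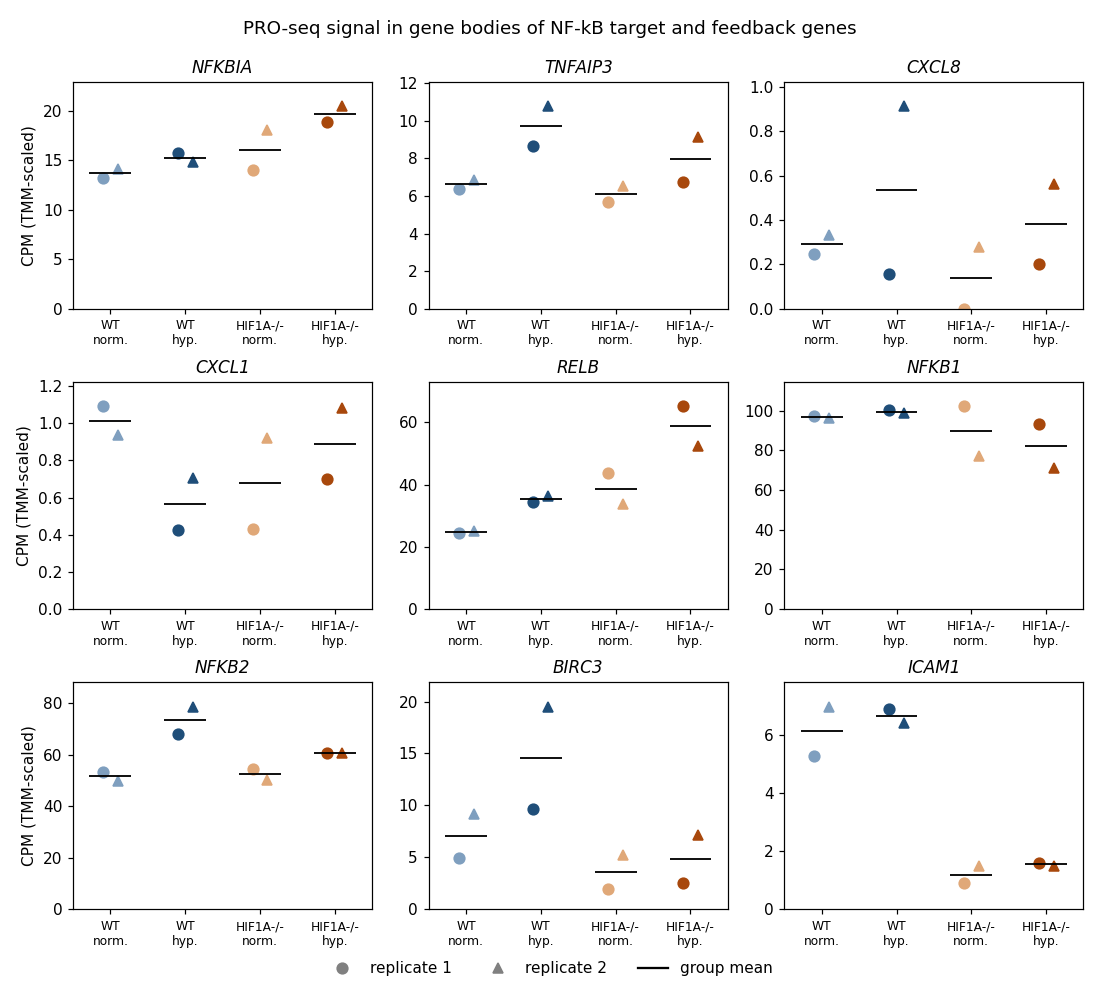
PRO-seq signal in the gene body of 9 NF-kappaB target and feedback genes, as TMM-scaled CPM (vertical axes start at 0 and differ between panels), for 4 groups of 2 libraries. Points are libraries, by replicate number, and black lines are group means. ICAM1 is below 2 CPM in every HIF1A-/- library and above 5 in every WT library, and BIRC3 is higher in replicate 2 than in replicate 1 of each group.

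RELB, the transactivating subunit of the non-canonical pathway, was the 1 member whose gene body was called higher in HIF1A-/- cells. Its gene body (chr19:45505707-45541456, plus strand, 7.75% exonic) held 24.4 and 25.2 CPM in normoxia then 34.4 and 36.4 in hypoxia in WT cells, and 43.6 and 33.8 then 65.1 and 52.3 in HIF1A-/- cells. Within each oxygen condition all HIF1A-/- libraries stood above all WT libraries, and within each genotype all hypoxic libraries stood above all normoxic ones. RELB was 1.66-fold higher in HIF1A-/- cells in hypoxia (0.73, SE 0.18, adjusted p = 0.0876), a call lost in 6 of the fits that leave out 1 library (WT normoxia replicate 1 or 2, 0.167 and 0.145, or any hypoxia library, 0.129 to 0.460). In normoxia the difference was 0.64 (SE 0.18) and was not called (adjusted p = 0.221), but it was called with the replicate number as a block (0.0325) and by DESeq2 (0.0453). Its response to hypoxia was 0.51 (SE 0.18) in WT cells and 0.60 (SE 0.18) in HIF1A-/- cells, neither called (adjusted p = 0.897 and 1), and with the block the first was called (0.0984) and the second was not (0.223). The difference between these responses was -0.09 (95% interval -0.66 to 0.49). At the TSS region RELB had 25 to 72 reads per library, and its largest difference, 0.64 in normoxia, was not called (SE 0.42, adjusted p = 0.727). Of 10 tested gene bodies within 100 kb, 0 were called between the genotypes without the block. Their median was 0.05 in normoxia and 0.33 in hypoxia. With the block 1 and 5 were called (10.3% and 28.2% of all genes), in hypoxia CLASRP, CLPTM1, TOMM40 and ZNF296 higher and APOC1 lower. Whether these neighbours have a part in the RELB difference was not tested.

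BIRC3 encodes cellular inhibitor of apoptosis 2, a ubiquitin ligase of the TNF receptor complex. Its gene body (chr11:102189181-102210134, plus strand) held 4.96 and 9.16 CPM in normoxia then 9.62 and 19.5 in hypoxia in WT cells, and 1.91 and 5.25 then 2.55 and 7.13 in HIF1A-/- cells. Replicate 2 was above replicate 1 in every group, so that the groups overlapped in normoxia although each HIF1A-/- library lay below the WT library of its own number. The hypoxia response was 1.05 in WT cells (SE 0.63, adjusted p = 0.897), and within the replicate pairs it was 0.96 and 1.09. With the block, BIRC3 was called higher in WT hypoxia (adjusted p = 0.0435) and lower in HIF1A-/- cells in normoxia (-1.05, adjusted p = 0.0274) and hypoxia (-1.64, adjusted p = 0.00164), where the fit without the block gave -0.97 (adjusted p = 0.823) and -1.59 (adjusted p = 0.285). In HIF1A-/- cells the pairs gave 0.42 and 0.44, which was not called with or without the block (adjusted p = 0.595 and 1). The difference between the responses was 0.61 (95% interval -1.47 to 2.69), an interval that includes differences of either sign. That interval includes the shift between replicate numbers. With the block the difference was 0.60 with a smaller SE of 0.30, and was not called (edgeR, adjusted p = 0.918). Of the 3 neighbours within 100 kb, 1 gene body was called between the genotypes in hypoxia, beside 4.26% of all gene bodies. This was TMEM123, named after its values were seen, which was also lower in HIF1A-/- cells (-0.85, adjusted p = 0.03). It had 2144 and 2226 reads in HIF1A-/- cells against 3216 and 5079 in WT. The antisense gene ENSG00000288528 overlaps both windows of BIRC3.

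NFKB2 and NFKB1 encode p100 and p105, precursors of the p52 and p50 subunits that also hold dimers in the cytoplasm. The NFKB2 gene body (chr10:104156353-104162286, plus strand) held 53.3 and 49.9 CPM in normoxia then 67.9 and 78.6 in hypoxia in WT cells, and 54.6 and 50.2 then 60.5 and 60.6 in HIF1A-/- cells. Hypoxic libraries stood above normoxic ones in both genotypes, by 1.42-fold in WT (0.50, SE 0.13, adjusted p = 0.551) and 1.16-fold in HIF1A-/- cells (0.21, SE 0.13, adjusted p = 1). With the block the WT response was called (adjusted p = 0.0604) and that in HIF1A-/- cells was not (0.587). The difference between the NFKB2 responses was 0.30 (95% interval -0.14 to 0.73), not called with or without the block. The NFKB1 gene body (chr4:103424055-103538459, plus strand) was level in WT libraries, with 97.1 and 96.2 CPM in normoxia and 100.1 and 99 in hypoxia, and more spread in HIF1A-/- libraries, with 102.1 and 77.3 in normoxia and 93.3 and 71.0 in hypoxia. Its WT response was 0.04 (95% interval -0.37 to 0.46). The antisense gene AF213884.3 overlaps the NFKB1 gene body.

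Neither of the feedback inhibitors was called in any comparison by edgeR, with or without the block, or by DESeq2. NFKBIA encodes IkappaBalpha, which retains RELA-containing dimers in the cytoplasm and strips them from DNA. Its gene body (chr14:35870715-35872959, minus strand) held 13.2 and 14.1 CPM in normoxia then 15.7 and 14.8 in hypoxia in WT cells, and 14.0 and 18.1 then 18.8 and 20.5 in HIF1A-/- cells, and the hypoxia responses were 0.16 (95% interval -0.28 to 0.59) and 0.29 (-0.14 to 0.73), neither called. TNFAIP3 encodes A20, a ubiquitin-editing enzyme that ends signalling upstream of the kinases. Its gene body (chr6:138189325-138204451, plus strand) held 6.39 and 6.84 CPM in normoxia then 8.67 and 10.8 in hypoxia in WT cells, and 5.70 and 6.54 then 6.76 and 9.15 in HIF1A-/- cells. Hypoxic libraries were the higher in each genotype, with responses of 0.56 (-0.02 to 1.14, adjusted p = 0.897, with the block 0.139) and 0.38 (-0.20 to 0.96, adjusted p = 1), neither called. The antisense WAKMAR2 overlaps both of its windows.

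The chemokines, which attract neutrophils, were near the limit of these libraries. The CXCL8 gene body (chr4:74607223-74609433, plus strand) held 5 and 6 reads in normoxia then 3 and 22 in hypoxia in WT cells, and 0 and 6 then 4 and 12 in HIF1A-/- cells, and its groups overlapped. A WT response between -1.61 and 3.46 on the log2 scale lay within its 95% interval, so that a change was not detectable at this depth. The CXCL1 gene body (chr4:74736109-74737019, plus strand) was the shortest, with 1.09 and 0.938 CPM in normoxia then 0.423 and 0.705 in hypoxia in WT cells, and 0.431 and 0.921 then 0.701 and 1.08 in HIF1A-/- cells. Both WT hypoxia libraries lay below both WT normoxia libraries (-0.83, SE 0.56, adjusted p = 0.897), while its TSS region, with 86 to 315 reads, was higher in each hypoxic replicate than in its normoxic pair (0.37, SE 0.29, adjusted p = 0.922, in WT).

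**Figure D2:**
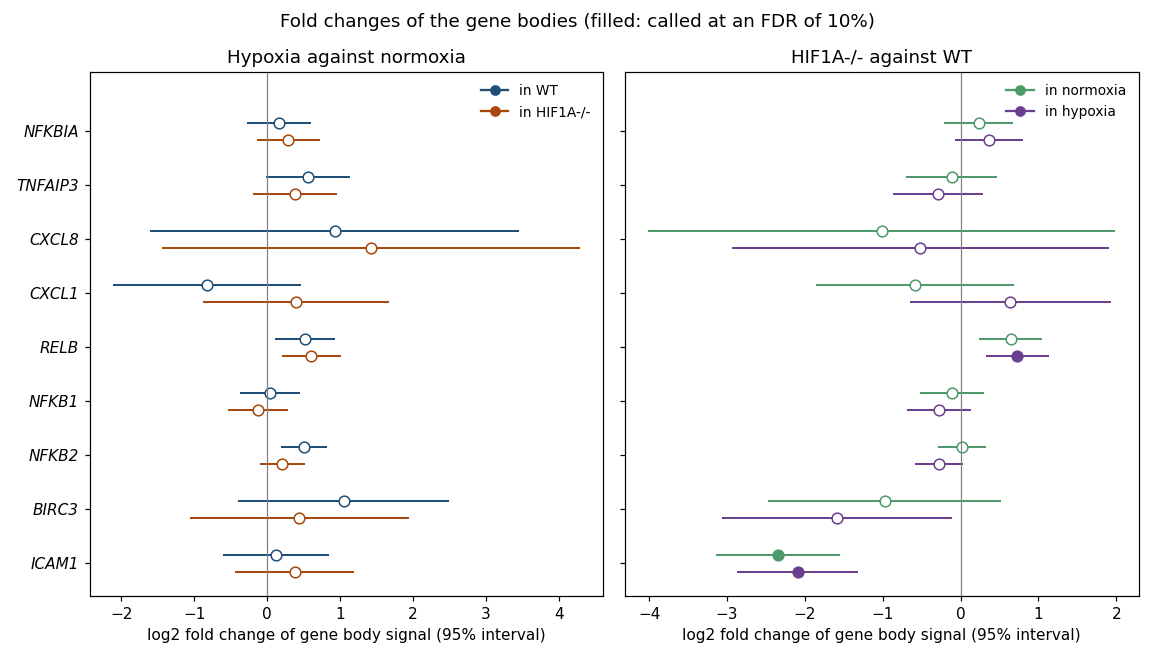
Log2 fold changes of the 9 gene bodies (horizontal axes) with their 95% intervals, for hypoxia against normoxia in each genotype (left) and HIF1A-/- against WT in each condition (right). Filled points are called at a false discovery rate of 10% by edgeR without the replicate block: ICAM1 in normoxia and hypoxia and RELB in hypoxia, all in the right panel. Calls with the block are given in the text.

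Across the 9 gene bodies, 0 were called for hypoxia in WT cells against 0.431% of all genes, with 2 (RELB and NFKB2) at an unadjusted p under 0.05, as for 4.61% of all genes, and 0 by DESeq2. With the block 3 were called (BIRC3, NFKB2 and RELB), against 5.51% of all genes. The log2 fold change was above 0 in 8 of 9, with a median of 0.50, where 47.5% of all genes tested were above 0 with a median of -0.02. In HIF1A-/- cells 0 were called, against 0% of all genes (0.036% with the block), with 1 (RELB) at an unadjusted p under 0.05, as for 2.08% of all genes, and 0 by DESeq2. Again 8 of 9 were above 0, with a median of 0.38, where 50.2% of all genes were. For the difference between the genotypes in this response 0 members were called with or without the block or by DESeq2, against 0.0539% of all genes called by edgeR (0.384% with the block). An unadjusted p under 0.05 was found for 0 members and 1.36% of all genes. Between the genotypes 1 was called in normoxia (ICAM1) against 1.78% of all genes, and 2 in hypoxia (ICAM1 and RELB) against 4.26%. With the block these were 3 and 3 (BIRC3 added in hypoxia, BIRC3 and RELB in normoxia), against 10.3% and 28.2%. The comparisons share libraries: the normoxic ones of a genotype enter both its hypoxia response and the contrast of genotypes in normoxia.

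In the TSS regions NFKBIA was the highest member, with 115 to 150 CPM over the 8 libraries, and CXCL8 and ICAM1 in HIF1A-/- cells the lowest. NFKB2 stood at 41.3 to 50.1 CPM in HIF1A-/- libraries and 25.8 to 37.1 in WT libraries, which did not overlap (0.45 in normoxia, adjusted p = 0.665, and 0.43 in hypoxia, adjusted p = 0.448). BIRC3 was higher in each hypoxic library than in its normoxic pair, with 7.77 and 11.7 CPM in normoxia then 10.3 and 20.9 in hypoxia in WT cells, and 3.98 and 8.37 then 8.29 and 13.3 in HIF1A-/- cells, and its responses of 0.69 (SE 0.45) and 0.77 (SE 0.49) were not called. For hypoxia 0 of 9 members were called in WT (0.046% of all genes, and 1.01% with the block), 0 in HIF1A-/- cells (0%, and 0.00657% with the block) and 0 for the difference between these responses (0.00657%, and 0.046% with the block). These 3 comparisons also gave 0 members by DESeq2 and 0 at an unadjusted p under 0.05, where 4.02%, 0.887% and 1.18% of all genes were. ICAM1 was the 1 member called between the genotypes, in normoxia (0.657% of all genes, 4.29% with the block) and in hypoxia (1.1%, and 14.4% with the block), and the block changed neither call.

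**Figure D3:**
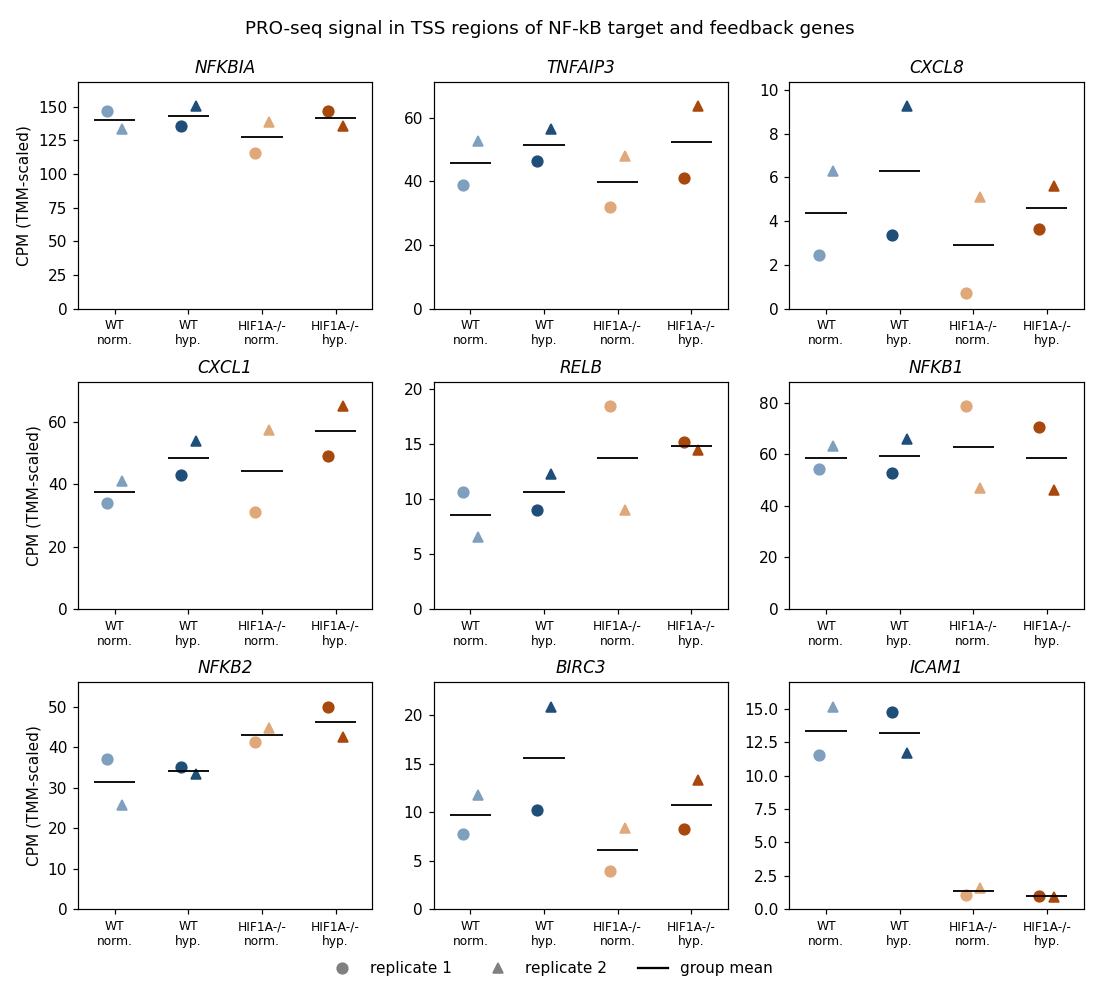
PRO-seq signal in the TSS region (50 bp before to 500 bp after the start site) of the 9 genes, in TMM-scaled CPM on axes that start at 0. Points are libraries and black lines are group means. ICAM1 is below 2 CPM in each HIF1A-/- library and above 11 in each WT library, while the groups of most other genes overlap.

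The pausing index, the CPM per bp of the TSS region over that of the gene body, separated the members. Since each table was scaled to its own total, the index compares genes and libraries and is not a ratio of raw read densities. Its median over all genes with no 0 count was 44.1 to 47.5 in the 8 libraries. TNFAIP3 (143 to 212), NFKB1 (109 to 160) and CXCL1 (51.9 to 168) lay above this median in every library, and RELB (15.2 to 28.4), NFKB2 (4.58 to 9.62) and NFKBIA (27.1 to 45.2) below it in every library. The deposited starts of NFKB1 and NFKB2 lie inside the annotated genes, so that polymerases from an upstream start would be counted in both of their windows. The index of CXCL1 rests on 8 to 23 gene body reads per library.

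The index of ICAM1 was 58.9 and 58.4 in normoxia then 57.4 and 48.9 in hypoxia in WT cells, and 32.0 and 29.6 then 16.6 and 16.7 in HIF1A-/- cells. All HIF1A-/- libraries lay below all WT libraries, but with 3 to 7 reads in their TSS regions the difference in hypoxia was not called (-1.65, SE 0.57, unadjusted p = 0.0114, adjusted p = 0.289). BIRC3 and NFKB2 had a higher index in HIF1A-/- cells in hypoxia, by 1.13 (SE 0.39, adjusted p = 0.293) and 0.72 (SE 0.24, adjusted p = 0.273), and with the block both were called (adjusted p = 0.0826 and 0.0628). In WT cells the index of CXCL1 stood at 51.9 and 72.7 in normoxia against 168 and 127 after hypoxia (1.17, SE 0.42, unadjusted p = 0.0143, adjusted p = 0.858). The CXCL1 gene body in these libraries held only 22 and 17 reads in normoxia then 8 and 17 in hypoxia. Without the block 0 members were called by edgeR in any of the 4 comparisons. Of all genes 0.193% were called for hypoxia in WT (0.545% with the block), 0% in HIF1A-/- cells with or without it, 0.0138% between the genotypes in normoxia (0.711%) and 0.669% in hypoxia (6.62%). At an unadjusted p under 0.05 the members numbered 1 for hypoxia in WT (5.34% of all genes), 0 in HIF1A-/- cells (1.65%), 0 between the genotypes in normoxia (6.35%) and 3 in hypoxia (12.2%).

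**Figure D4:**
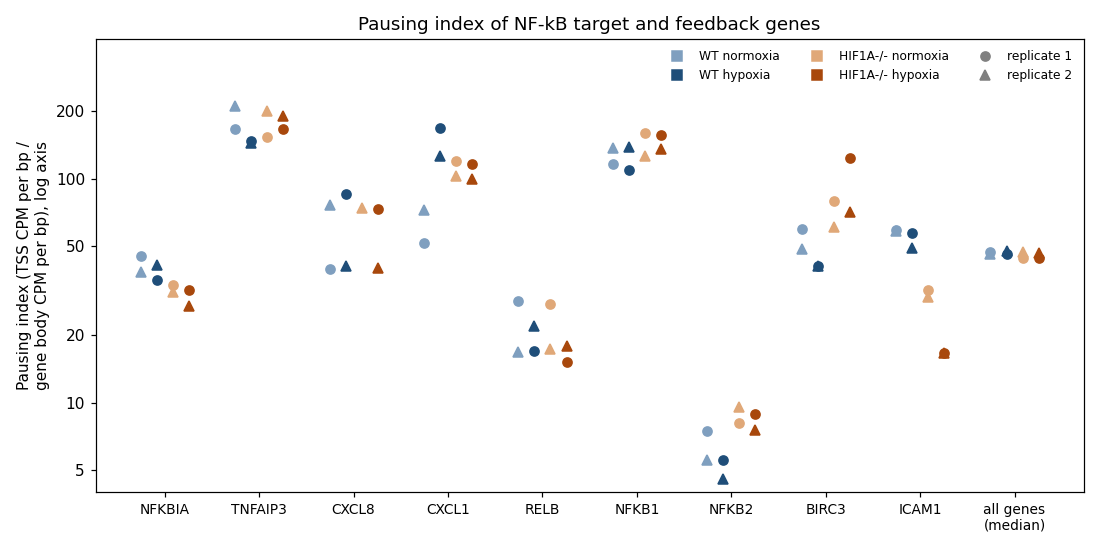
Pausing index (log axis) of each of the 9 genes in each library, beside the median over all genes. Colours are the 4 groups and shapes the replicate numbers. NFKB2 and RELB lie below the median in every library, TNFAIP3 and NFKB1 above it, and ICAM1 is lower in the HIF1A-/- libraries. CXCL8 has no value in the HIF1A-/- normoxia library with 0 gene body reads.

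The rest of the pathway was read from 68 further genes, grouped by role, of which 56 gene bodies and 54 TSS regions passed the filter. For hypoxia in WT gene bodies 1 of the 56 was called, beside 0.431% of all genes. This was TNIP1, which encodes a ubiquitin-binding partner of A20. It held 68.3 and 64.8 CPM in normoxia then 129.1 and 121.2 in hypoxia in WT cells, and 61.4 and 61.0 then 66.5 and 69.9 in HIF1A-/- cells, so that both WT hypoxia libraries stood above all libraries of the other 3 groups. TNIP1 rose 1.88-fold in WT hypoxia (0.91, SE 0.12, adjusted p = 0.0314), a call lost without any 1 of the 4 WT libraries (adjusted p = 0.136 to 0.499), and was lower in HIF1A-/- cells in hypoxia (-0.88, SE 0.12, adjusted p = 0.0105), a call lost without HIF1A-/- hypoxia replicate 1 (0.107). For the difference between the responses 0 of the 56 were called (0.0539% of all genes), and 2 had an unadjusted p under 0.05 (1.36%). TNIP1 was the 1 gene called with the block (0.384% of all genes) and by DESeq2. Its TSS window held 0 to 11 reads per library, too few to bear on the start (3.21, SE 1.24, adjusted p = 0.922).

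No other group of the pathway was called without the block in either hypoxia response: 0 of 2 Rel subunits (RELA and REL), 0 of 5 IkappaB family inhibitors, 0 of 13 kinases, 0 of 10 adaptors and ubiquitin ligases, 0 of 8 receptors, 0 of 2 ligands and 0 of 11 other targets (edgeR, gene bodies). Over all 56, an unadjusted p under 0.05 was found for 3 in WT and 0 in HIF1A-/- cells, beside 4.61% and 2.08% of all genes. DESeq2 called 1 (TNIP1) and 0. The median over the 56 gene bodies was -0.03 in WT and -0.04 in HIF1A-/- cells, with 26 and 23 above 0. With the block 6 of 56 were called in WT, beside 5.51% of all genes, where BCL3 and TNIP1 were higher and CHUK, OTULIN, RNF31 and TRAF2 lower, and 0 in HIF1A-/- cells. By smallest p in each direction, the genes after TNIP1 were TRAF6, an adaptor ligase of interleukin and Toll-like receptors (-0.38 in WT, adjusted p = 0.897), and, in HIF1A-/- cells, the atypical inhibitor BCL3 (0.48, adjusted p = 1) and the linear-chain deubiquitinase OTULIN (-0.36, adjusted p = 1). In TSS regions they were the protease gene PLAU (-0.48 in WT, adjusted p = 0.922), the ligase gene RNF31 (-0.47) and the TWEAK receptor gene TNFRSF12A (0.24) in HIF1A-/- cells, the last pair with adjusted p = 1. In the TSS regions 0 of 54 were called in any of the 5 comparisons by edgeR or DESeq2, where edgeR called between 0% and 1.1% of all genes. An unadjusted p under 0.05 was found for 4 for hypoxia in WT (4.02% of all genes) and 0 in HIF1A-/- cells (0.887%). It was found for 0 in the difference between these responses (1.18%), and between the genotypes for 4 in normoxia (7.99%) and 6 in hypoxia (13.7%). With the block 0 were called in the hypoxia responses and their difference, 2 between the genotypes in normoxia (LIF and TAB2, 4.29% of all genes) and 8 in hypoxia (14.4% of all genes). Between the genotypes 0 of the 56 gene bodies were called in normoxia and TNIP1 alone in hypoxia, beside 1.78% and 4.26% of all genes. An unadjusted p under 0.05 was found for 5 and 10 of them, beside 9.0% and 15.7% of all genes. The calls were 2 (BCL2L1 and MAP3K14) and 5 by DESeq2. With the block they were 5 and 17 of 56, beside 10.3% and 28.2% of all genes. In the pausing index 1 of 52, BCL2L1, named after its value was seen, was called lower in HIF1A-/- cells in hypoxia, beside 0.669% of all genes, and with the block 4 were called, 1 higher and 3 lower (6.62% of all genes).

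Over the 8 libraries the log2 CPM of gene bodies linked some members more than others. As a description, with libraries that share genotype, condition and replicate number, Pearson's r was 0.844 between TNFAIP3 and NFKB2, 0.830 between BIRC3 and TNFAIP3, 0.801 between CXCL8 and BIRC3, 0.762 between ICAM1 and BIRC3 and 0.729 between NFKBIA and RELB. CXCL1 was nearest to CXCL8 (0.607) and NFKB1 to ICAM1 (0.457), and the lowest value was -0.802, between NFKBIA and NFKB1. ICAM1 and RELB ran in opposite directions (-0.673). The 5 other genes with the highest mean r to the members were ABCC11, ETFRF1, KIAA1217, HRH4 and TLR1, with means of 0.474 to 0.480. They were picked as the highest of 16677 genes, so that lying above the median of -0.0006 follows from the choice. Their r to single members ran from -0.189 to 0.945.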

How the data were processed

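The deposited files hold raw read counts per gene, made by the authors from PRO-seq of 8 libraries, each merged from 2 sequencing runs. Reads were aligned without splicing to GRCh37 with HISAT2 2.1.0, kept at a mapping quality above 10 with SAMtools 1.5, and counted with featureCounts (Subread 1.6.2) over the TSS region (50 bp before to 500 bp after the most active start) and the gene body (from 1001 bp to the end). Transcripts under 1500 bp were left out, and strand settings are not given in the sources used here. Short gene bodies hold few reads, and reads from internal or antisense starts are counted with the gene.

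From these counts, genes with a CPM above 0.5 in at least 2 libraries (16686 gene bodies, 15212 TSS regions, 14494 for the pausing index) were fitted by group over all 8 libraries with edgeR 4.0.16 (TMM, quasi-likelihood test) in R 4.3.3, with Benjamini-Hochberg adjustment over all genes tested and calls at a false discovery rate of 10%. CPM are scaled by TMM, except in the filter and the marker sums, which use library totals. The pausing index was tested as the interaction of region and group over the 16 columns of both tables, with a term per library. Alternatives were DESeq2 1.42.0 (not for the pausing index), size factors in place of TMM, library totals, no filter, the groups compared alone, each library left out, and the replicate number as a block. Deviations from the group means correlated between equally numbered libraries in each of 6 group pairs (r of 0.501 to 0.848 in gene bodies, 0.218 to 0.522 in TSS regions), so the numbers pair the samples. The pairing comes from these correlations and not from the labels. Fits without the block did not use it, so their spread includes the shift between replicate numbers. For hypoxia in WT, 72 gene bodies were called without the block and 919 with it. Fits were tested on simulated data. Named genes were all members, pathway genes called in any gene body or TSS comparison or with the smallest p in each direction for hypoxia, and the genes nearest in pattern. The members and lists were chosen with earlier results of these data known.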

Additional observations from a re-analysis of the deposited data

How the results depend on the processing

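Single-gene values of the members, and of TNIP1 where it was called, were recomputed under the alternatives. Other pathway genes, some of which the block moved across the threshold, are not in these counts. Of 1682 such values, 1656 stayed on the same side of the threshold and 9 passed it only under the alternative. Another 17 lost it, and 0 called values changed sign. Among the 1575 values called under neither setting, 105 had the other sign, and 2 adjusted p were not given by DESeq2. The replicate block moved the number of members called from 0 to 3 for gene bodies in WT hypoxia, from 1 to 3 between the genotypes in normoxia, and from 0 to 2 for the pausing index between the genotypes in hypoxia. It changed no other member's call except that of BIRC3 between the genotypes in hypoxia. DESeq2 called 2 gene bodies between the genotypes in normoxia. Leaving out 1 library gave 0 to 1 called gene bodies between the genotypes in normoxia and 0 to 2 in hypoxia, and a lone library is then assumed to vary like the other groups. With 2 libraries per group, and few reads for CXCL8, CXCL1 and the ICAM1 TSS region in HIF1A-/- cells, the intervals leave room for changes that were not detectable, and all p-values cover these libraries of 1 HIF1A-/- line only.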
